A study of Macaca mulatta with 36 samples.

Results

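Cadherins are membrane proteins that hold cells together by binding partners on the neighbouring cell in the presence of calcium, and protocadherins are their largest related branch. The 39 genes described here were taken from the table that pairs probe sets with gene symbols. A gene entered if a probe set carried its symbol alone and the symbol began with CDH and a digit or with PCDH. CDH5, the cadherin of endothelial junctions, was left out, and where a gene had several such probe sets the brightest on average was taken. These genes stand among 14132 genes named in this way and were read by 64 probe sets of the 52707 tested. By family, 14 are type I or type II classical cadherins, 5 are atypical cadherins, 8 are non-clustered protocadherins and 12 are clustered protocadherins. CDH2, CDH6, CDH24, PCDH1, PCDH9, PCDH11Y, PCDH17 and PCDH19 had no probe set under a single symbol in this table, nor did any gene of the gamma protocadherin cluster, and they were not analysed here.

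Classical cadherins bind through their outer domains and are tied to the actin skeleton inside the cell by catenins, and in the hippocampus they sit at synaptic junctions. Non-clustered protocadherins are expressed in subsets of neurons and some signal to actin through the WAVE complex. Clustered protocadherins are made from tandem gene arrays in which each neuron switches on its own choice of promoters, which gives the cell a surface identity used in self-recognition of its branches. The proteins of the alpha cluster share the end encoded by common constant exons, whereas those of the beta cluster are each encoded by a single exon.

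The samples are hippocampus from 18 male rhesus macaques, 9 labelled SIVE (simian immunodeficiency virus encephalitis, a brain inflammation) and 9 labelled Control. The labels record an anti-CD8 treatment, an antibody that removes CD8 T cells, in 4 SIVE and 2 Control animals, and none in the other 5 SIVE and 7 Control animals. SIVE animals were 2 to 6 years old, Control animals 3 to 8, and all 4 SIVE animals with anti-CD8 were 6. Each animal has 2 Affymetrix arrays, 36 in all, which were averaged so that the animal is the replicate. No group is described as infected without encephalitis, so infection and encephalitis cannot be told apart, and the virus strain and the time since infection are not given in the sources used here.

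Values are log2 signals, and a difference of 1 is a doubling. Signals of different probe sets depend on their probes, so levels are compared between animals, and across probe sets they serve only to choose the probe set of a gene, to choose genes to name and to mark dim signals. The array medians lay between 5.59 and 5.75, and the median probe set over all arrays lay at 5.65. Of the 39 genes, 29 reached that level in at least 1 group mean and 10 stayed under it. The 2 arrays of an animal differed over these genes by a median SD of 0.132, with a range of 0.0459 to 0.238. The median SD between animals of a group was 0.242. The first SD is that of single arrays and the second that of animal means of 2 arrays, so they are not on 1 scale. In 3 animals, SIVE 2, SIVE 3 and Control 8, the 3′ probe sets of control transcripts exceeded the 5′ ones by 0.948 to 1.46, against 0.105 to 0.465 in the other 15, and all 3 carry the anti-CD8 label. Such a gap is a common sign of degraded or shortened RNA. Of 3 measured dentate granule cell markers, which belong to the hippocampus, PROX1 reached the median level, while TDO2 and DSP stayed under it. All 4 measured neuron markers reached it.

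The main comparison asked which genes differ between SIVE and Control hippocampus. In this comparison 0 of the 39 genes rose, 2 fell and 37 did not pass (limma, Benjamini-Hochberg adjusted p under 0.05 over all probe sets). CDH3, P-cadherin of epithelia, fell 1.25-fold, and PCDH10, a non-clustered protocadherin of forebrain neurons that binds the WAVE complex, fell 1.29-fold. The share called was 5.13%, against 7.23% of all 14132 genes, of which 5.72% were higher and 1.51% lower. At an unadjusted p under 0.05 there were 1 higher and 9 lower genes, where 12.9% and 12.7% of all genes passed in each direction. In either direction together 25.6% of all genes passed at that level, and so did 10 of these 39, a like share.

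Most differences were small and most lay below 0. Of the 39 genes, 32 had a lower mean in SIVE (82.1%), against 55.6% of all genes, and the median difference was -0.10, against -0.02 over all genes. The differences ran from -0.56 in CDH13 to 0.54 in PCDHA11. The 95% interval of the difference lay within 1.5-fold in both directions for 35 of 39 genes (89.7%), against 87.4% of all genes. The exceptions were CDH22, CDH13, PCDH18 and PCDHA11, for which a difference above 1.5-fold lies within the interval. In none of the 39 genes did the 2 groups separate without overlap, which 1.95% of all genes did.

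**Figure D1:**
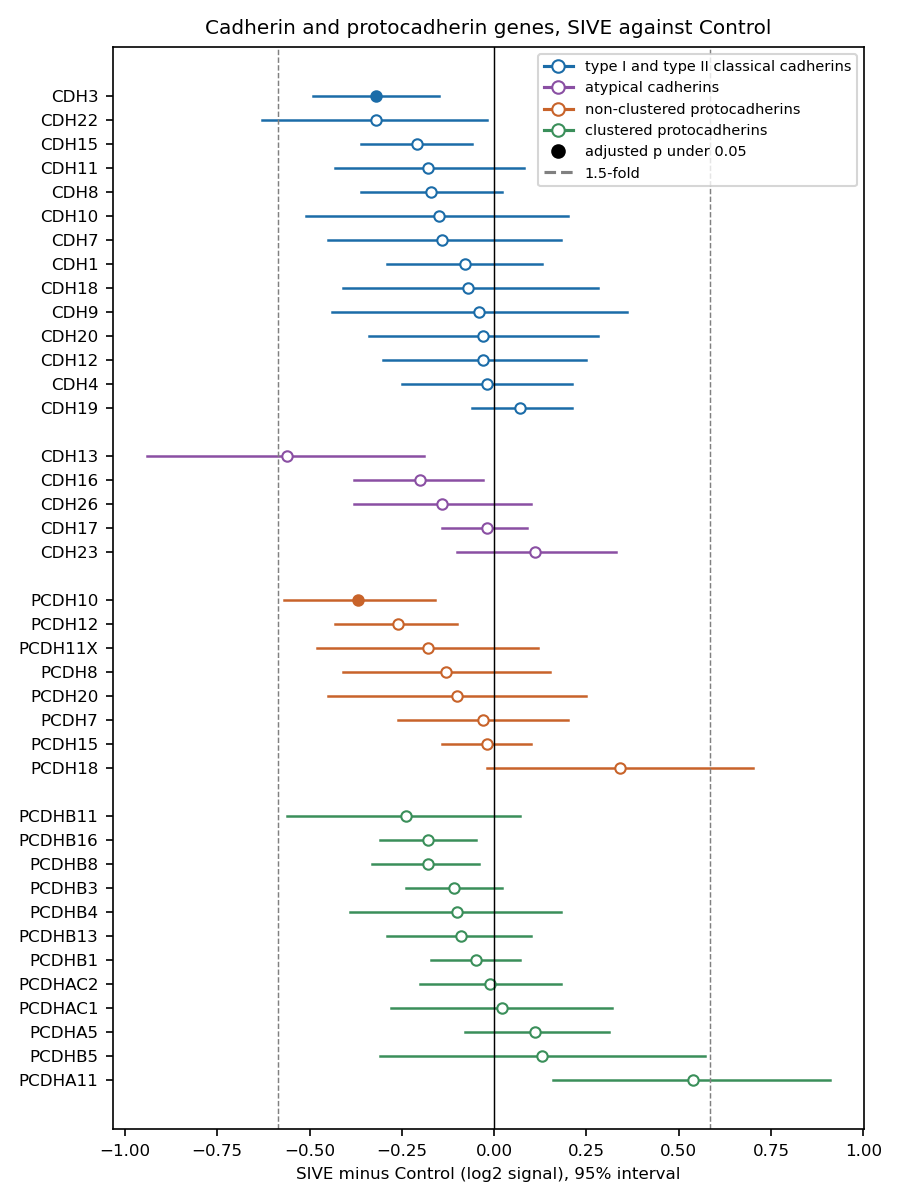
Difference in mean log2 signal between 9 SIVE and 9 Control animals for the 39 genes (x axis, log2 units), grouped by family and sorted, with 95% intervals as bars. Filled circles, CDH3 and PCDH10, mark adjusted p under 0.05, and dashed lines mark 1.5-fold in each direction. Of the circles, 32 lie left of 0, and 4 bars cross a dashed line.

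In CDH3, SIVE animals ran from 5.21 through a median of 5.37 to 5.73, and Control animals from 5.39 through 5.74 to 6.05. All 9 SIVE animals lay below the Control median, and 6 of them lay below the lowest control, Control 5. The highest SIVE animal, SIVE 2, and the highest control, Control 8, are among the 3 animals of high 3′ signal. The means were 5.40 ± 0.14 (SD, n = 9) and 5.73 ± 0.19 (n = 9), a difference of -0.32 ± 0.08 (SE), with a 95% interval of -0.49 to -0.15 and a limma adjusted p of 0.0225. The SIVE mean stands under the median probe set level of 5.65 and the Control mean just above it, so this is a dim signal in which background can take part. The second CDH3 probe set, which may read part of the same probes, differed by -0.20 and did not pass (adjusted p = 0.095). Without the 3 animals of high 3′ signal the difference was -0.32 and passed (adjusted p = 0.0117). With only the first array of each animal it was -0.25 and did not pass (adjusted p = 0.119).

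PCDH10 ran from 6.51 through 6.83 to 7.14 in SIVE animals and from 6.85 through 7.18 to 7.61 in Control animals. Again all 9 SIVE animals lay below the Control median, and 5 lay below the lowest control. The lowest SIVE animal, SIVE 2, and the lowest control, Control 8, both belong to the animals of high 3′ signal. The means were 6.81 ± 0.21 (SD, n = 9) and 7.18 ± 0.22 (n = 9), and the difference was -0.37 ± 0.10 (SE), with a 95% interval of -0.57 to -0.16 and a limma adjusted p of 0.0382. The second probe set of PCDH10 differed by -0.27 and came close to the threshold (adjusted p = 0.0576). Without SIVE 2, SIVE 3 and Control 8 the fall was 0.33 and passed (adjusted p = 0.0407). The call was lost when any 1 of 11 animals was left out (SIVE 1 to 6, Control 2, 3, 4, 7 and 9; adjusted p up to 0.0705), and with age as a covariate (adjusted p = 0.0508).

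Among the other classical cadherins, 12 of 13 had a lower mean in SIVE and 0 passed. CDH15, M-cadherin of muscle precursors, ran from 5.82 through 5.98 to 6.14 in SIVE and from 5.93 through 6.16 to 6.51 in Control animals, and all 9 SIVE animals lay below the Control median (difference -0.21 ± 0.07 SE, limma adjusted p = 0.108). CDH22, a type II cadherin of brain, ran from 6.56 through 7.00 to 7.49 and from 7.01 through 7.32 to 8.08. Its 5 lowest SIVE animals lay below every control, but 2 others lay above the Control median, and the difference of -0.32 ± 0.15 did not pass (limma adjusted p = 0.211). CDH8 and CDH11 are type II cadherins known at hippocampal synapses. CDH8 differed by -0.17 ± 0.09 (SE, limma adjusted p = 0.294). CDH11 differed by -0.18 ± 0.12 (adjusted p = 0.412), and its groups ran from 8.10 through 8.92 to 9.30 in SIVE and from 8.88 through 9.12 to 9.32 in Control animals. The lowest value, SIVE 8, stood apart from the nearest SIVE animal at 8.81, and without SIVE 8 the CDH11 difference was -0.07 (limma adjusted p = 0.636). The other 2 CDH11 probe sets stood at -0.07 and 0.06. Of the other 9, CDH1, E-cadherin, was under the median level and differed by -0.08 ± 0.10 (SE), and CDH19 was the only classical cadherin above 0, at 0.07, also under that level. These 2 genes are named after their values were seen.

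The atypical cadherins had 4 of 5 members below 0, and 0 passed. CDH13, T-cadherin, which is held to the membrane by a lipid anchor, has no cytoplasmic tail and binds adiponectin, had the largest difference of the 39 genes in size. It ran from 6.24 through 6.93 to 7.43 in SIVE and from 6.84 through 7.21 to 8.11 in Control animals. The 2 lowest SIVE animals, SIVE 2 at 6.24 and SIVE 3 at 6.29, and the lowest control, Control 8 at 6.84, are those of high 3′ signal. The means were 6.84 ± 0.39 and 7.41 ± 0.42 (SD, n = 9 each), a difference of -0.56 ± 0.18 (SE) that did not pass (limma adjusted p = 0.0803). The second CDH13 probe set stood at -0.35 (adjusted p = 0.255). The brightest probe set passed at -0.64 without SIVE 9 and at -0.63 without Control 8, at -0.62 after quantile normalization, at -0.55 with the 3′ signal as a covariate and at -0.48 with array weights, and not without the 3 animals together (-0.47, adjusted p = 0.0761).

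The other atypical members differed less. CDH16, a cadherin of kidney epithelium, differed by -0.20 ± 0.08 (SE, limma adjusted p = 0.175), and CDH26, a cadherin of epithelium, by -0.14 ± 0.11 (adjusted p = 0.504). CDH23, which forms the tip links of hair cells together with PCDH15, stood at 0.11 ± 0.10 (adjusted p = 0.552). Its 3 dimmer probe sets stood below 0, at -0.12, -0.15 and -0.20, and with all 4 averaged the gene stood at -0.09, so its sign depends on the probe set. PCDH15 itself was under the median probe set level, at 3.18 ± 0.09 and 3.20 ± 0.12 (SD, n = 9 each); it was named after its values were seen.

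In the non-clustered protocadherins 7 of 8 members stood below 0, and PCDH10 alone passed. PCDH12, a protocadherin of endothelial cells, ran from 4.39 through 4.68 to 4.83 in SIVE and from 4.61 through 4.96 to 5.21 in Control animals. All 9 SIVE animals lay below the Control median, but both groups lay under the median probe set level, and the difference of -0.26 ± 0.08 (SE) missed the threshold narrowly (limma adjusted p = 0.0587). It passed without the 3 animals of high 3′ signal (-0.30, adjusted p = 0.0397), as it did without SIVE 2, SIVE 3, Control 3 or Control 7 alone. In all, PCDH12 passed in 8 of 30 alternative fits, and with the second array alone the limma adjusted p was 0.242. Its 2 arrays per animal differed by an SD of 0.23 for single arrays, beside 0.165 between the animal means of a group.

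CDH5, the cadherin of endothelial junctions and no member of the 39, was higher in SIVE by 0.52 ± 0.12 (SE, limma adjusted p = 0.0165), while its second probe set stood at 0.11 (adjusted p = 0.376). Endothelial and pericyte markers as a list had 3 of 6 measured members called higher and 0 lower, against 5.72% and 1.51% of all genes. Their mean level per animal ran from 6.92 to 7.86 in SIVE and from 6.66 to 7.51 in Control animals. The 3 called higher were CDH5 itself, PECAM1 and VWF, while TEK at 0.27, CLDN5 at 0.11 and KDR at -0.13 did not pass.

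PCDH18, a relative of PCDH10, had the highest difference of the non-clustered genes. It ran from 6.36 through 6.62 to 7.23 in SIVE and from 5.86 through 6.40 to 7.19 in Control animals, and 8 of 9 SIVE animals lay above the Control median. The difference of 0.34 ± 0.17 (SE) had an interval of -0.02 to 0.70 and did not pass (limma adjusted p = 0.259); the second probe set stood at 0.24. PCDH8, known as arcadlin and induced by synaptic activity, ran from 9.57 through 10.10 to 10.33 and from 9.42 through 10.30 to 10.51 and differed by -0.13 ± 0.14 (adjusted p = 0.614). PCDH11X, from the X chromosome, differed by -0.18 ± 0.14 (adjusted p = 0.492), with its other 2 probe sets at -0.23 and -0.20. Over the 15 genes with more than 1 probe set under a single symbol, 9 had all of them on the same side of 0.

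**Figure D2:**
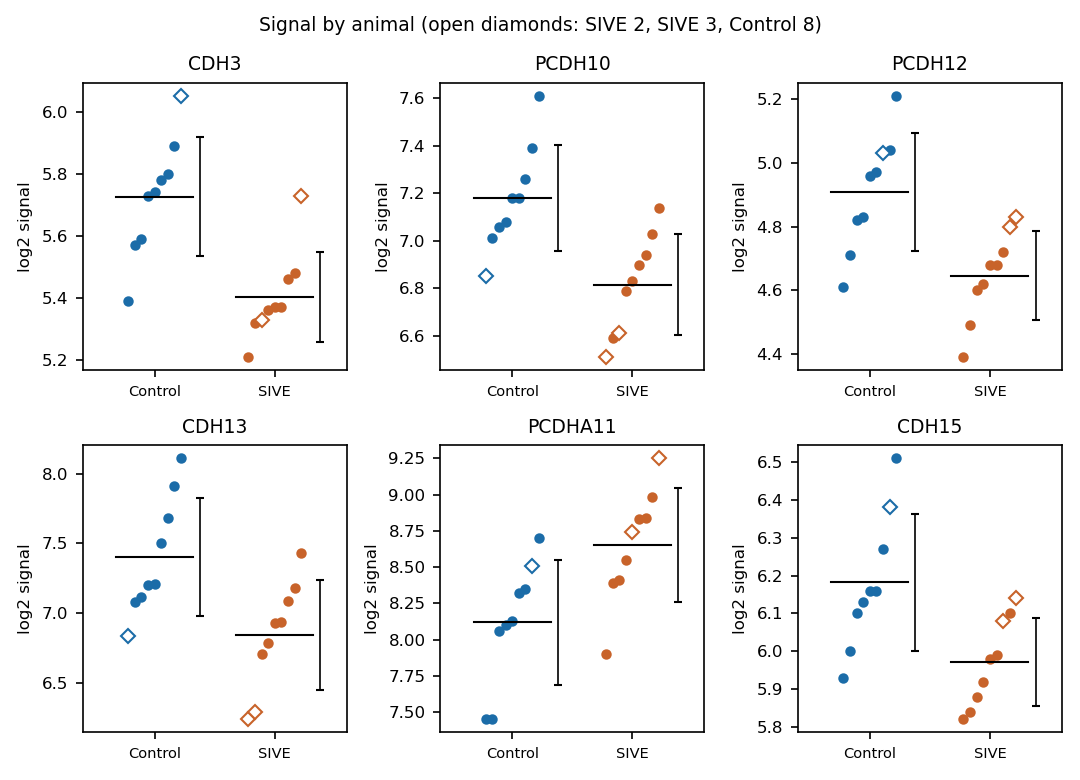
Log2 signal (y axis) of 6 genes in each of 9 Control and 9 SIVE animals; points are animals, horizontal lines the group means and bars 1 SD. Open diamonds mark SIVE 2, SIVE 3 and Control 8, the animals of high 3′ signal. The groups overlap in every panel; in CDH3, PCDH10, PCDH12 and CDH15 all SIVE animals lie below the Control median.

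The clustered protocadherins split by probe set. Of 12 genes, 4 alpha and 8 beta, 0 passed and 8 stood below 0. The median difference was 0.07 over the 4 alpha genes and -0.11 over the 8 beta genes. PCDHA11 was the only one of the 39 genes that was higher at an unadjusted p under 0.05. It ran from 7.90 through 8.74 to 9.25 in SIVE and from 7.45 through 8.13 to 8.70 in Control animals, and 5 SIVE animals lay above the highest control. The means were 8.65 ± 0.39 and 8.12 ± 0.43 (SD, n = 9 each), a difference of 0.54 ± 0.18 (SE), or 1.45-fold, that did not pass (limma adjusted p = 0.10). It passed in 3 of 31 alternative fits. It did so at 0.63 without SIVE 8, the lowest SIVE animal, at 0.62 with the first arrays alone and at 0.56 with array weights. With the second arrays alone the difference was 0.46 and did not pass (limma adjusted p = 0.236).

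The 2 other PCDHA11 probe sets did not share this difference. They are dim, with means over all arrays of 3.48 and 3.00, and stood at -0.04 ± 0.05 and -0.13 ± 0.04 (SE). With the 3 averaged the gene stood at 0.12 (limma adjusted p = 0.288). The brightest probe set of PCDHA5 stood at 0.11 ± 0.09 (adjusted p = 0.511), while its other 5 probe sets lay between -0.24 and -0.01 and their average with it stood at -0.10. PCDHAC1, one of the C-type members of the cluster, stood at 0.02 ± 0.14 (adjusted p = 0.956), with its other 2 at -0.32 and -0.12.

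Over the alpha cluster as a whole 15 probe sets were measured, one of them shared by 3 genes. The 3 above 0 were the brightest ones of PCDHA11, PCDHA5 and PCDHAC1, and the other 12 lay between -0.32 and -0.01. At an unadjusted p under 0.05 there were 9, of which 8 were lower, and 0 passed after adjustment. Over all probe sets 21.2% passed at this unadjusted threshold, 12.9% of all being lower ones, and 4.92% passed after adjustment. Probe sets of this cluster can read transcripts that share the constant exons, and the sources used here do not state which exon each reads, so a value cannot be assigned with certainty to a single alpha gene.

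**Figure D3:**
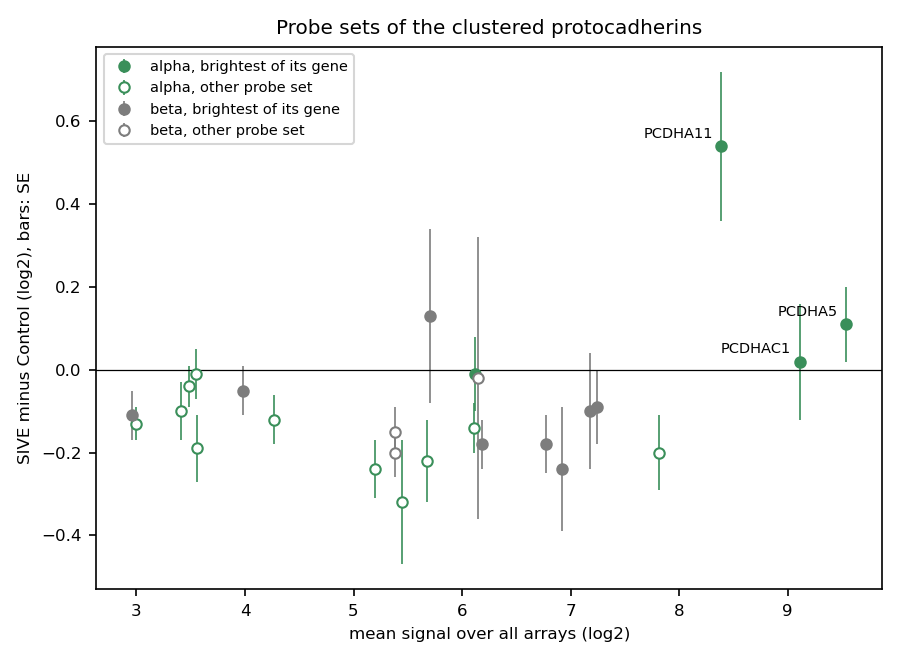
Difference between SIVE and Control animals (y axis, log2, bars: SE) against the mean signal over all arrays (x axis, log2) for 15 probe sets of the alpha cluster and 11 of the beta cluster. Filled points are the brightest of a gene. The 3 alpha probe sets above 0 are the brightest of PCDHA11, PCDHA5 and PCDHAC1, and 10 of 11 beta probe sets lie below 0.

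Of the 11 beta probe sets 10 lay below 0, 4 had an unadjusted p under 0.05, all lower, and 0 passed. Over all probe sets 21.2% had such a p, 12.9% of all being lower ones, and 4.92% passed. Among the 4 were a probe set shared by PCDHB16 and PCDHB2 and another shared by PCDHB4, PCDHB3 and PCDHB2. These may read part of the same probes, so the 4 are not separate readings. PCDHB16 ran from 5.91 through 6.08 to 6.24 in SIVE and from 6.04 through 6.27 to 6.50 in Control animals, a difference of -0.18 ± 0.06 (SE, limma adjusted p = 0.107). PCDHB8 ran from 6.54 through 6.71 to 6.74 and from 6.66 through 6.82 to 7.21, a difference of -0.18 ± 0.07 (adjusted p = 0.136). In both genes all 9 SIVE animals lay below the Control median. Beta genes are near copies of each other, so cross-reading between them is possible. In the order of the RefSeq annotation of the assembly T2T-MMU8v2.0, the 4 alpha genes, the 8 beta genes and PCDH12 follow each other on 1 chromosome, after CDH18, CDH12, CDH10 and CDH9. The beta differences along that order were -0.05 for PCDHB1, -0.11 for PCDHB3, -0.10 for PCDHB4, 0.13 for PCDHB5, -0.18 for PCDHB8, -0.18 for PCDHB16, -0.24 for PCDHB11 and -0.09 for PCDHB13. These were named for their place, after their values were seen.

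Another run holds CDH8, CDH11, CDH16, CDH3, CDH1, CDH13 and CDH15, in this order among the 39 genes and on 1 chromosome. All 7 stood below 0, from -0.56 to -0.08, as did 32 of the 39 genes (82.1%), and CDH3 alone passed. The run was noticed after the values were seen, and other genes lie between its members. CDH5, left out of the 39 by the rule and higher in SIVE by 0.52 (second probe set 0.11), was not placed in this order. Whether it lies within the run was not examined.

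Anti-CD8 treatment was the second condition. SIVE was compared with Control separately in the animals without and with the treatment, and the treatment was compared with none within each group. In these comparisons and in the test of the difference between the first pair, 0 of the 39 genes passed (limma). They share animals, so their values are given side by side. Without anti-CD8, 5 SIVE against 7 Control animals, 1 gene was higher and 9 lower at an unadjusted p under 0.05, against 10.6% and 11.9% of all genes, of which 4.77% passed after adjustment. With it, 4 SIVE against 2 Control animals, there were 2 higher and 5 lower, against 7.56% and 8.46% of all genes, and 1.51% passed after adjustment. All treated SIVE animals were 6 years old and the treated controls 4 and 3, so SIVE and age cannot be told apart there. SIVE 2, SIVE 3 and Control 8, the animals of high 3′ signal, are all among the treated. The difference between the untreated and treated effects had 0 at an unadjusted p under 0.05, against 0.722% higher and 1.17% lower of all genes. Every adjusted p was 1.0, and 0.0% of all genes passed; the median SE of 0.24 shows how coarse that test was. Anti-CD8 against none gave 3 higher and 4 lower genes at an unadjusted p under 0.05 within SIVE, against 12.6% and 6.44% of all genes. Within Control animals it gave 3 and 5, against 9.79% and 6.03%. After adjustment 0.0% of all genes passed in either.

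The genes that fell held nearly the same difference in both strata. CDH3 stood at -0.35 ± 0.10 (SE, limma adjusted p = 0.0611) without anti-CD8 and at -0.34 ± 0.15 (adjusted p = 0.274) with it. The interval of the difference between these effects ran from -0.36 to 0.38, as wide as the effect itself on either side. CDH3 passed without anti-CD8 when SIVE 2, Control 5, Control 8 or Control 9 was left out. PCDH10 stood at -0.33 ± 0.12 (adjusted p = 0.154) and -0.31 ± 0.17 (adjusted p = 0.403), with an interval of the difference from -0.42 to 0.46.

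CDH15 had the smallest adjusted p in animals with anti-CD8. Control animals without the treatment ran from 5.93 through 6.13 to 6.27, and the 2 with it were at 6.38 and 6.51. SIVE animals without the treatment were at 5.82, 5.84, 5.92, 5.98 and 5.99, and those with it at 5.88, 6.08, 6.10 and 6.14. Thus both treated controls lay above every other animal, and SIVE animals of either label overlapped. With only 2 treated controls, the share of all genes that show this was not counted. The treated control at 6.38 is Control 8, of high 3′ signal. In CDH15 the 2 arrays of an animal differed by an SD of 0.195 for single arrays, beside 0.152 between the animal means of a group. SIVE minus Control was -0.40 ± 0.10 (SE, limma adjusted p = 0.0711) with the treatment and -0.20 ± 0.07 (adjusted p = 0.138) without it, and the treated controls differed from the untreated by 0.34 ± 0.09 (adjusted p = 0.297). CDH15 passed in both of the comparisons of treated controls when Control 5 was left out.

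CDH22 was lowest in untreated SIVE animals, at 6.56, 6.75, 6.96, 6.99 and 7.00. All of them lay below the 7 untreated controls, which ran from 7.06 through 7.32 to 7.86. The gap from 7.00 to 7.06 is narrow, and the share of all genes that separate in this stratum was not counted. Treated SIVE animals were at 7.10, 7.31, 7.37 and 7.49, and treated controls at 7.01 and 8.08. The untreated difference was -0.48 ± 0.16 (SE, limma adjusted p = 0.12) and passed when Control 8 or Control 9, which enter only the shared spread, was left out. The treated difference was -0.23 ± 0.24 (adjusted p = 0.669), and the difference between them ran from -0.35 to 0.85.

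PCDH18 was highest in untreated SIVE animals, at 6.62, 6.85, 7.01, 7.17 and 7.23. Untreated controls ran from 5.86 through 6.40 to 7.19, treated controls were at 6.22 and 6.53, and treated SIVE animals at 6.36, 6.41, 6.52 and 6.56. All untreated SIVE animals lay above all treated SIVE animals, while untreated controls spread over the whole range. How many of all genes separate between these few SIVE animals was not counted. SIVE minus Control was 0.56 ± 0.20 (SE, limma adjusted p = 0.142) without the treatment and 0.08 ± 0.29 (adjusted p = 0.916) with it, and the test of the difference did not pass (-0.48 ± 0.35). The untreated value passed when Control 2, the highest control, was left out. PCDHA11 stood at 0.34 ± 0.22 without and 0.86 ± 0.33 with the treatment (SE, limma adjusted p = 0.436 and 0.228). The test of the difference between these PCDHA11 effects did not pass (0.52 ± 0.40, interval -0.32 to 1.36). Its 2 treated controls were far apart, at 7.45 and, in Control 8 of high 3′ signal, at 8.51.

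CDH9, a cadherin of the mossy fibre synapses of the hippocampus, had the largest difference of anti-CD8 against none within SIVE, -0.62 ± 0.23 (SE, limma adjusted p = 0.304). Treated SIVE animals were at 5.87, 5.99, 6.61 and 6.68, and untreated ones at 6.52, 6.67, 7.08, 7.14 and 7.15. The 2 lowest are SIVE 3 and SIVE 2, and among controls the lowest, Control 8 at 6.01, is the third animal of high 3′ signal. In SIVE animals age moved with the treatment too, since all treated SIVE animals were 6 years old and the untreated ones younger; its part in these values cannot be told apart from that of the treatment. CDH9 was chosen after its values were seen.

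**Figure D4:**
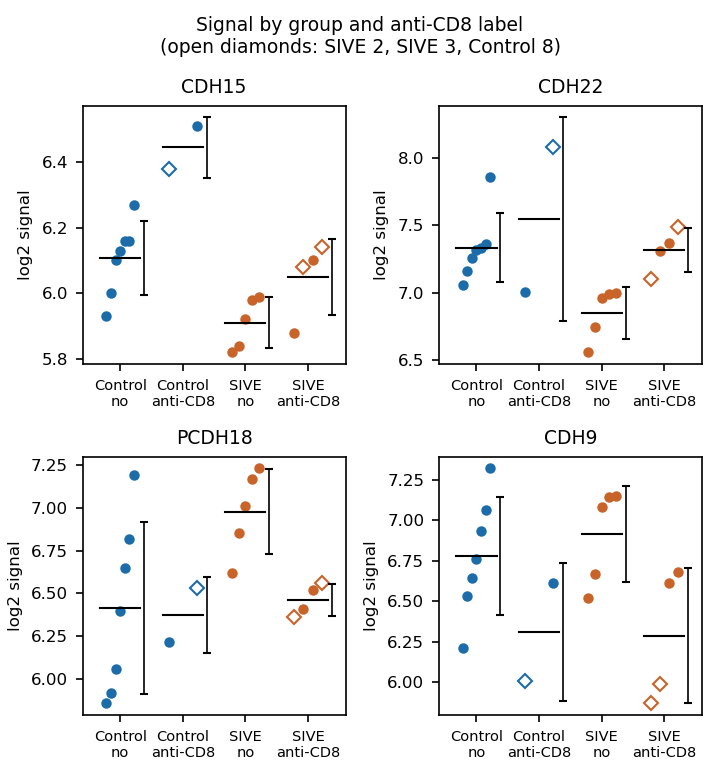
Log2 signal (y axis) of CDH15, CDH22, PCDH18 and CDH9 in 7 Control animals without and 2 with anti-CD8, and 5 SIVE animals without and 4 with it; points are animals, lines means and bars 1 SD. Open diamonds mark SIVE 2, SIVE 3 and Control 8. The treated controls are highest in CDH15, and in CDH9 the diamonds are the lowest points.

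The animals of high 3′ signal were compared with the rest of their groups in these genes. The mean of SIVE 2 and 3 was set against the other 7 SIVE animals, and Control 8 against the other 8 controls. In 22 of 39 genes both deviations were lower (56.4%), in 13 both were higher (33.3%) and in 4 they had opposite signs, whereas over all genes 30.6% were both lower and 52.2% both higher. Their median sizes were 0.24 and 0.34, against 0.13 for the SIVE difference, and over all genes the same medians were 0.22, 0.27 and 0.12. A deviation of 1 or 2 animals varies more by sampling than a difference between means of 9, so these sizes are not a like comparison. In 23 genes (59.0%) both deviations went the same way and exceeded the SIVE difference, against 53.8% of all genes. In 9 (23.1%) both exceeded 0.5, against 13.5% of all genes. The 2 groups held nearly equal 3′ signal, 0.440 ± 0.374 in SIVE and 0.416 ± 0.399 in Control animals (SD, n = 9 each).

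In 9 genes (23.1%, against 18.2% of all genes) the 3 animals all lay outside the range of the other 15. They lay below it in CDH10, CDH9, PCDH8, PCDH20, PCDHB11, PCDHB4 and PCDHAC1 and above it in CDH23 and PCDH11X. In CDH10, a type II cadherin of brain, SIVE 2, SIVE 3 and Control 8 were at 8.06, 7.73 and 7.86, and the other 15 between 8.45 and 9.07. In PCDH20 they were at 7.88, 7.94 and 7.93, and the others between 8.22 and 9.14. In PCDH11X they were at 9.15, 9.25 and 9.58, and the others between 8.33 and 9.10. These 9 genes were picked by the position of the 3 animals, and the part of RNA quality in their values was not tested. Of these, CDH10, CDH9, PCDH20, PCDHB11 and PCDHB4 were named after their values were seen. For PCDH10 the deviations were -0.33 and -0.37, and for CDH3 they were 0.16 and 0.36.

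**Figure D5:**
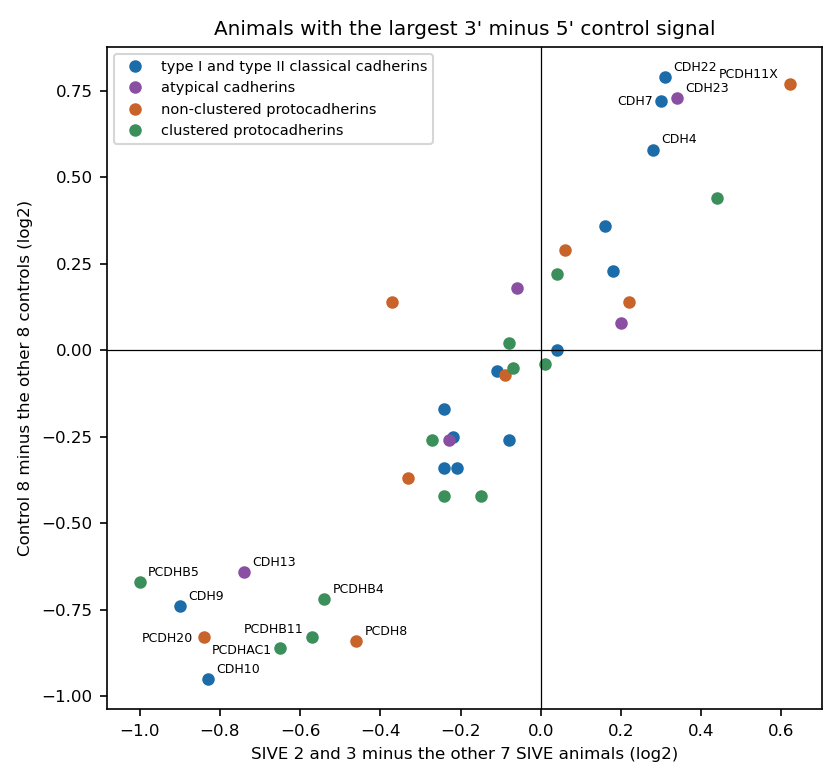
Deviation of Control 8 from the other 8 controls (y axis, log2) against that of SIVE 2 and 3 from the other 7 SIVE animals (x axis, log2), 1 point for each of the 39 genes, coloured by family. Genes with a deviation above 0.5 in size are named; 22 points lie in the lower left and 13 in the upper right part.

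SIVE 9 and Control 8, the latter among these 3, stood most often at an end of their groups. SIVE 9 was the lowest SIVE animal in 8 of the 39 genes, CDH3 and CDH15 among them, and the highest in 11, PCDH10 and CDH13 among them. Control 8 was the lowest control in 14 genes and the highest in 6. Both shares, 48.7% and 51.3%, are close to those over all genes, 47.9% and 52.2%.

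The partners of the cadherins were read from 5 lists with 73 entries, of which 51 were measured. In all, 2 rose and 2 fell in SIVE, or 7.84% against 7.23% of all genes, and the median difference was -0.04 against -0.02 over all genes. Among 11 catenins and adaptors, which link cadherins to actin, 1 rose and 1 fell. CTNNA1, α-catenin of most cell types, ran from 8.99 through 9.28 to 9.48 in SIVE and from 8.83 through 9.06 to 9.13 in Control animals, a rise of 0.26 ± 0.07 (SE, limma adjusted p = 0.0208). CTNND2, the δ-catenin of neurons, ran from 10.67 through 10.73 to 10.85 and from 10.79 through 11.01 to 11.20, a difference of -0.21 ± 0.06 (SE, adjusted p = 0.0284). The groups overlapped in both. CTNNA1 passed whichever single animal was left out, and CTNND2 in 12 of 18 such fits (adjusted p up to 0.0579). CTNNB1, β-catenin, was not analysed here. CTNNA2, the neuronal α-catenin, stood at -0.20 ± 0.11 and did not pass.

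Among 6 measured proteins that shed or cleave cadherins, NCSTN, a subunit of γ-secretase, rose by 0.20 ± 0.06 (SE, limma adjusted p = 0.0446), from 7.96 through 8.18 to 8.26 in Control to 8.22 through 8.29 to 8.51 in SIVE animals. PSEN2, its catalytic partner, stood at 0.18 ± 0.06 (adjusted p = 0.0636) and ADAM10, the main sheddase of N-cadherin, at 0.21 ± 0.07 (adjusted p = 0.0869), and neither passed. The call of NCSTN was lost in 19 of 31 other fits. Among 18 other members of the superfamily (FAT, dachsous, CELSR, calsyntenins, desmosomal cadherins), CDHR2, a protocadherin of microvilli, differed by -0.23 ± 0.06 (SE, limma adjusted p = 0.0353), from 6.59 through 6.87 to 7.11 in Control to 6.45 through 6.60 to 6.81 in SIVE animals; it passed in 16 of the 31. Of 8 intracellular partners of protocadherins, among them the WAVE complex gene WASF1 at -0.03 ± 0.14, and of 8 genes of promoter choice in the clusters, cohesin subunits above all, 0 passed. PSEN2, ADAM10, CTNNA2 and WASF1 were named after their values were seen.

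Cell type markers moved between the groups beside these genes. Of 7 microglia and macrophage markers 5 passed as higher in SIVE and 0 as lower, against 5.72% and 1.51% of all genes. CSF1R at 0.45 and ITGAM at -0.35 did not pass. The mean level of these markers per animal ran from 8.16 to 9.01 in SIVE and from 6.79 to 7.58 in Control animals. Of 4 neuron markers 2 passed as lower and 0 as higher (10.93 to 11.23 against 11.14 to 11.59). Of 3 oligodendrocyte markers 2 passed as lower (11.02 to 11.51 against 11.21 to 11.66). SYT1 at -0.06 and STMN2 at -0.22 among the neuron markers, and CNP at 0.06 among the oligodendrocyte ones, did not pass. Of 5 astrocyte markers GFAP was higher and SLC1A2 lower, and markers of oligodendrocyte precursors, choroid plexus, meninges, and thalamus and striatum had 0 past the threshold. The part of cell composition in the falls of CDH3 and PCDH10 was not tested. In pieces of tissue, fewer cells of a type and less RNA per cell cannot be told apart.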

How the data were processed

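Total RNA of rhesus hippocampus was read on 36 Affymetrix arrays, 2 for each of 18 animals. Values deposited by the authors run from 2.3 to 14.49, a log2 scale by that range, and come from RMA, per the submitters' processing notes; RMA corrects background, normalizes between arrays and summarises probes. Its version and probe definitions are not given in the sources used here. Whether the 2 arrays of an animal read 1 RNA or separate pieces of tissue is not stated, and they were averaged. The number of animals sets the precision, since arrays yield no counts.

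Of 52865 probe sets, 99 control and 59 reporter probe sets were left out. A two-sided moderated test was run on the other 52707 in R 4.3.3, using lmFit and eBayes of limma 3.58.1. Adjusted p-values are those of Benjamini and Hochberg over the whole table, and calls were made under 0.05. The SIVE comparison used 18 animals, and the anti-CD8 comparisons used 4 cell means with a shared spread. The step was tested on simulated data. Symbols came from the platform annotation, and 24969 probe sets have 1 symbol, 361 several and 27535 none. Of the 39 genes, 37 matched RefSeq by gene ID and 2 by symbol. Tables and figures used Python 3.11.15, pandas 2.3.3 and matplotlib 3.10.9.

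Genes named are those past the threshold and, in each of the 4 families, the 3 of smallest p and the 2 of highest mean, plus up to 4 called genes in each related list. The members, families and lists were chosen with earlier results of these data known. Same-numbered SIVE and Control animals did not deviate together (correlations from -0.488 to 0.0888), so the numbers do not pair them. Alternatives covered covariates, normalization, a filter on dim probe sets, single arrays, averaged probe sets, the prior, array weights and each animal left out.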

Additional observations from a re-analysis of the deposited data

Results flagged for a closer look

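Of 78 sets of 9 values (39 genes in each group), 7 held 1 animal whose gap to its nearest neighbour exceeded 0.493 of the group's range; chance alone flags about 1 set in 20. In SIVE animals these were CDH11 in SIVE 8, at 8.10 with the nearest animal at 8.81, PCDHB11 in SIVE 2, at 6.05 against 6.66, and PCDHB3 in SIVE 9, at 3.21 against 2.95. In Control animals they were CDH1 in Control 5, at 5.51 against 4.74, CDH17 in Control 5, at 4.44 against 4.67, CDH23 in Control 8, at 9.40 against 8.82, and PCDHAC1 in Control 8, at 8.33 against 8.93. PCDHB3, CDH1 and CDH17 lie under the median probe set level. SIVE 2 and Control 8 are animals of high 3′ signal, and its part was not tested.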

How the results depend on the processing

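Among 31 alternatives to the fit of SIVE against Control, the number of the 39 genes below 0 ran from 23, with dim probe sets removed so that fewer genes were tested, to 35. The number called lower was 0 with the replicate block (the label numbers, which do not pair the animals), 4 with the 3′ signal as a covariate or with array weights, 5 with the anti-CD8 label as a covariate, and 1 with age as a covariate, with arrays centred on their medians, or with the second array alone. It ran from 1 to 3 when single animals were left out. CDH3 was lost with the replicate block (adjusted p = 0.0789) and with the first array alone, where CDH16 passed with PCDH10, and it was the 1 called wherever a single gene fell. The number called higher was 1, PCDHA11, with the first array alone and with array weights, and 0 to 1 with single animals left out.

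Without anti-CD8, 2 were called lower without SIVE 2, SIVE 3 and Control 8 or with array weights, 1 with the first array alone, and 0 to 2 with single animals left out; 0 to 1 were called higher. With anti-CD8, CDH15 was the 1 called lower with the second array alone, and 0 to 1 were called lower with single animals left out. Within Control animals, anti-CD8 gave 1 higher with the second array alone. With single animals left out it gave 0 to 3 higher and 0 to 3 lower, and the 3 and 3 arise without Control 9, where Control 8 is the lone treated control and is assumed to vary like the others. Of the related genes, 0 were called higher with the replicate block or quantile normalization, 1 without the 3 animals, with the filter on dim probe sets, with either array alone or with an intensity trend, 4 with array weights, and 1 to 3 with single animals left out. The number called lower was 0 with the replicate block, with centring or with the second array alone, 1 with an intensity trend, and 0 to 2 with single animals left out.

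With the probe sets of a gene averaged, CDH23 stood at -0.09, PCDHA5 at -0.10 and PCDHAC1 at -0.14. PCDHAC1 also stood at -0.02 after quantile normalization, at 0.0 with the first array alone, and from -0.08 to 0.09 with single animals left out. The cause of these changes was not tested. Signals under the median probe set level, as in PCDH12 and nearly so in CDH3, limit what a fold can show.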
